A study of Mus musculus with 12 samples.

Results

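The comparison set a culture of mouse neural progenitor cells infected with a retrovirus carrying EGFP, an inert fluorescent reporter, against a culture labelled mock. It used 2 of the 12 arrays of the series, chosen by their labels and by the slide recorded in the file headers, which both shared. Of 27670 gene symbols on the array, 17772 had a probe well above background on both arrays and were compared. Both cultures were of the 129/Ola strain. The EGFP culture received the open reading frame in the vector pMXs-IRESNeo at a titre at which about 95% of cells expressed it. G418 followed at 24 h, to kill cells that lacked the insert, and RNA was taken at 72 h after infection. The sources used here do not say if the mock cells were exposed to an empty vector or to G418. Infection, selection and the EGFP insert therefore cannot be told apart in this comparison. The other 10 arrays each held cells given a transcription factor in the same vector. Each RNA sample, 0.25 µg at labelling, was hybridised to a 1-colour (Cy3) Agilent array. With 1 array per group there was no replicate, and no gene was tested. No probe on the array was named for EGFP, neomycin or aminoglycoside resistance, so the insert itself could not be read.

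A gammaretroviral vector enters through a surface receptor, is copied into DNA and integrates when the host cell divides. Cells can sense viral nucleic acids through Toll-like and cytosolic receptors and answer with interferon-stimulated genes. They also carry restriction factors and silencing proteins that act on retroviral genomes. G418 is an aminoglycoside that binds ribosomes and disturbs translation, and the neomycin resistance gene of the vector inactivates it. Infection and selection may therefore change interferon, stress, translation, p53 and cell death genes. Neural progenitors are dividing cells that express Nes (nestin), Vim (vimentin) and Sox2, and that can give neurons and glia.

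Levels are log2 intensities relative to the 75th percentile of the same array, so that 0 is that percentile, and differences are EGFP minus mock on the log2 scale. The 75th percentile of signal was 942.4 units on EGFP and 886.8 on mock, against a range of 823.5 to 1026 over the 12 arrays. The share of spots well above background was 69.4% on EGFP, the highest of the 12 arrays, and 66.4% on mock. Saturation was not seen on any array. Precision is limited by the number of arrays.

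The labelled cell type was first checked against its markers. Of 29 neural progenitor markers on the array, 21 (72.4%) were well above background on both arrays. Over the whole array, 17772 of 27670 gene symbols were, so that detection alone sets these markers little apart. Nes stood at a level of 3.34 on EGFP and 3.52 on mock, between 1.92 and 3.61 on the other 10 arrays. Vim stood at 6.46 and 6.38, and Sox2, a transcription factor of neural stem cells, at 0.50 and 0.47. Each of these 3 genes differed by less than 0.2 between both arrays. Ptprz1, a receptor phosphatase of radial glia, stood at 8.25 on EGFP and 8.30 on mock. Slc1a3, a glutamate transporter of radial glia and astrocytes, stood at 1.45 and 1.31, and Gli3, a mediator of Hedgehog signalling, at 2.57 and 2.58. Among dimmer markers, Pax6 stood at -2.61 and -2.60. Sox3, Fabp7, Olig1, Nr2e1 and Pou3f2 were not well above background on either array, and Olig2, Pou3f3 and Bcan were so only on EGFP. The marker set was therefore present in part on both arrays.

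Regional patterning genes were read next. Of 19 forebrain and midbrain patterning genes, 11 were well above background on both arrays. Dlx2, a transcription factor of the ventral forebrain, stood at 3.16 on EGFP and 3.29 on mock, and Dlx1, a related factor, at 0.64 and 0.50. Others lay near background, such as Pax2 at -5.37 and -5.55 and En2 at -5.07 and -5.08. Of 27 Hox genes, which pattern the hindbrain, cord and body, 16 were also measured on both, among them Hoxa7 at 1.09 and 1.01. Some forebrain and some Hox genes were thus detected in the same RNA. The shares of these lists were 57.9% and 59.3%, beside 17772 of 27670 gene symbols over the whole array.

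Markers of other cell types were present too. Of 14 fibroblast and mesenchyme markers, 13 were well above background on both arrays, including the fibrillar collagen genes Col1a1 at 3.49 on EGFP and 3.34 on mock and Col1a2 at 6.08 and 5.99. S100a4, a calcium-binding protein of motile mesenchymal cells, stood at 8.47 and 8.49. All 9 listed neural crest markers and 11 of 12 muscle markers were measured on both arrays, the latter including the smooth muscle actin gene Acta2 at 3.96 and 3.87. Another Acta2 probe stood far lower, at -2.96 and -2.95, and the muscle marker Myod1 stood near background, at -5.95 and -5.45. Of 9 epithelial markers 8 were measured, with the keratin gene Krt18 at 2.84 and 2.91. Lower shares than these were detected of neuronal (11 of 19), astrocyte (8 of 11) and oligodendrocyte (9 of 12) markers. The same held for endothelial (4 of 8) and microglia and leukocyte (3 of 10) markers. The astrocyte and oligodendrocyte shares were still not below the 72.4% of neural progenitor markers. In RNA of whole cultures, fewer cells of a type and less RNA per cell cannot be told apart.

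**Figure D1:**
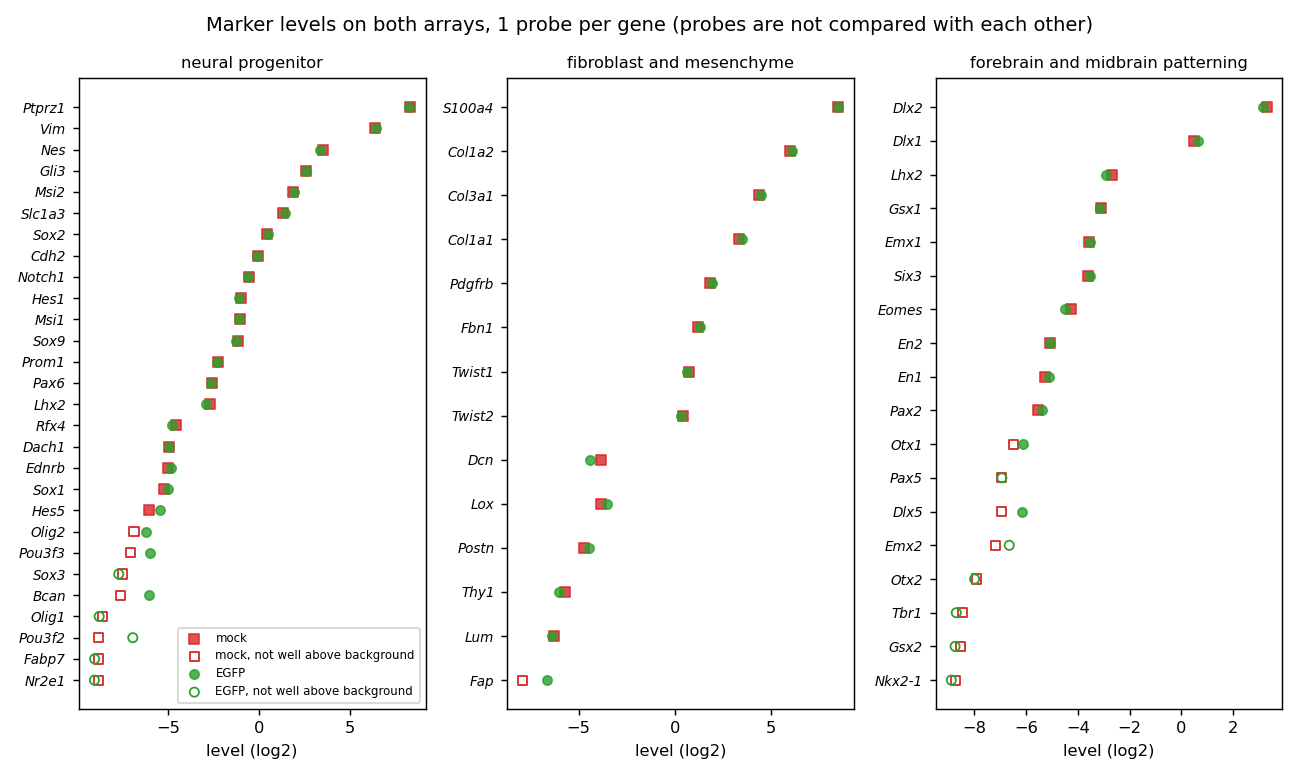
Levels (log2, relative to the 75th percentile of each array) of most listed neural progenitor, fibroblast and mesenchyme, and forebrain and midbrain patterning genes on the EGFP array (circles) and the mock array (squares), with open symbols where a probe was not well above background. The symbols of both arrays lie close for the brighter genes, with Nes at 3.34 and 3.52, and separate more among genes near background.

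No marker of any of the 13 cell type lists reached 2-fold among those measured on both arrays, where 0.557% of all genes did. The list medians lay between -0.12 for endothelial and 0.09 for muscle markers, with neural progenitor markers at -0.01. With quantile normalization the endothelial median, over 4 genes, was -0.20 and the muscle median turned to -0.05. The median of all 17772 genes was 0.0008. Among progenitor markers measured on both arrays, Hes5, a Notch target, had the largest difference at 0.58, with levels of -5.45 and -6.03.

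Across all genes the arrays were close. The median absolute difference was 0.08, or 1.05-fold, and the middle 95% of genes lay between -0.38 and 0.46. The spread narrowed with brightness when the genes were divided into 3 equal parts by their mean level. The middle 95% ran from -0.63 to 0.68 in the dimmest part, from -0.21 to 0.25 in the middle part and from -0.17 to 0.15 in the brightest part.

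At least 2-fold apart were 99 genes, or 0.557% of those compared, of which 37 (0.208%) were higher on EGFP and 62 (0.349%) were lower. With a normexp background correction, 5 were higher and 2 lower, so the share of higher genes among them was 71.4% in place of 37.4%. In the dimmest part lay 98 of the 99, and the other stood in the middle part. At 1.5-fold, 243 genes (1.37%) were higher and 191 (1.07%) lower, and 6 of these 434 genes (2.44%) lay in the brightest part.

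**Figure D2:**
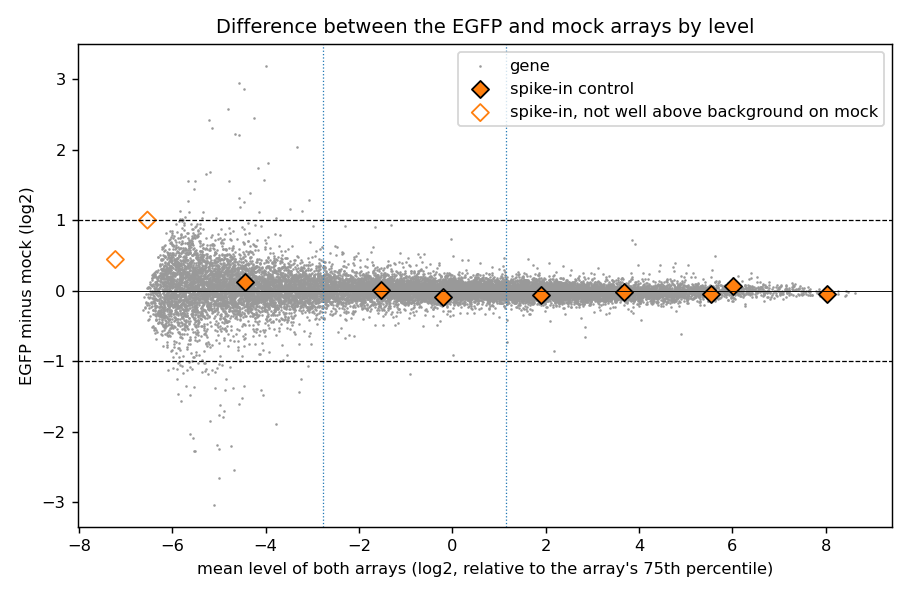
EGFP minus mock (log2) for 17772 genes (grey points) against the mean level of both arrays (log2), with 10 spike-in controls (orange diamonds, open where the probe was not well above background on mock), dashed lines at 2-fold and dotted lines between the 3 equal parts. The cloud widens toward low levels, where 98 of the 99 genes beyond 2-fold lie, while the 8 spike-ins measured on both arrays lie between -0.09 and 0.12.

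Spike-in controls, transcripts added to each RNA before labelling, gave a reading of transcripts that did not come from the cells. Their levels were scaled by the same percentile of each array as the genes, so their differences still depend on the cellular RNA. For 8 of the 10 spike-in probes, each printed 32 times, EGFP and mock differed by -0.09 to 0.12. The other 2 were the dimmest, and neither was well above background on mock. The brighter of them stood at -6.03 on EGFP, where 31 of 31 kept spots were well above background, and on mock 5 of 30 kept spots were, so that only a bound of at least 1.44-fold higher on EGFP can be given. The last was not well above background on either array. What part this has in the differences of dim genes was not tested.

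Second probes gave another reading of the same RNA. Of the 99 genes at 2-fold, 8 had another probe well above background on both arrays, 3 of these had one that differed in the same direction, and 0 had one at 2-fold. For Spon2, which encodes a matrix protein, the chosen probe gave -1.60 and the other 0.49. For Pde4d, a cyclic AMP phosphodiesterase gene, the chosen probe gave -1.61 and the other 2 measured probes 0.38 and 0.53. For Grk4, a receptor kinase gene, the values were -2.20 and 0.19. No difference at 2-fold therefore recurred at that size at a second probe.

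The dim genes with the largest higher values on EGFP were Icos, Tceal1, Padi3, Slc7a14, Mkrn3, Tmem255a, Gbp5, Oscar, Tulp1 and H2al1m. Icos, a T cell costimulatory receptor gene, stood at -4.00 on EGFP and -6.42 on mock, a difference of 2.42, and its other probe was not above background on either array. Gbp5, a guanylate-binding protein gene induced by interferon, stood at -3.96 and -5.14. The largest lower values were those of Kprp, Kcnj9, Krtap4-7, Grk4, Actn2, Tcte2, Myadml2, Pde4d, Spon2 and Prdm6, from -3.03 to -1.56. For Myadml2, Kcnj9 and Tcte2 another probe was well above background on EGFP only, and so read the other way. Its levels on EGFP and mock were -5.25 and -8.80 for Myadml2, -6.29 and -8.77 for Kcnj9, and -6.54 and -6.97 for Tcte2. Kprp, a keratinocyte protein gene, stood at -6.62 on EGFP and -3.59 on mock and was well above background on 2 of the 12 arrays. With the normexp background, Tceal1 at 1.16 and Kprp at -1.06 alone of these 20 genes stayed at 2-fold. Of the 62 genes lower on EGFP, mock had the highest level of all 12 arrays for 44, and of the 37 higher, EGFP had the highest for 25. The 2-fold rule picked these genes for a high level on that array, which favours such counts. The share over all genes was not taken, so no conclusion is drawn from them.

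Tceal1, a gene for an elongation factor-like nuclear protein on the X chromosome (chrX:131428611-131428670, mm7), fell into a higher and a lower group of arrays. It was well above background on all 12. Its level was -2.31 on EGFP and -4.35 on mock, a 4.10-fold difference. On Pax6, Esx1, Crebzf, Pdx1, Sox11 and Zfp451 it lay between -1.88 and -1.75, close to EGFP, and on Hmga2, Gatad2b, Etv6 and Nfxl1 between -4.81 and -4.52, close to mock. Mkrn3, a makorin ring finger gene that is imprinted, stood at -3.63 on EGFP and -5.02 on mock. On the same 6 arrays it lay between -3.52 and -3.05, with -2.71 on Etv6 and -5.75 to -5.06 on Hmga2, Gatad2b and Nfxl1. The reverse held at the chosen probes of Grk4, Pde4d and Spon2, where mock and not EGFP stood near these 6 arrays. Grk4 stood at -5.85 on EGFP and -3.65 on mock, with -4.50 to -3.98 on the 6. Pde4d stood at -5.79 and -4.18, with -4.89 to -4.10. Spon2 stood at -5.37 and -3.77, with -3.80 to -2.40. Other probes of these genes leaned the other way between EGFP and mock, as given above.

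Genes well above background on 1 of the 2 arrays can be given only as bounds. There were 1118 well above background only on EGFP and 301 only on mock. The lowest signal well above background was 8.60 units on EGFP and 9.40 on mock, so dimmer genes could pass on EGFP. The median bound was 0.26 on log2 for the 1118 genes and 0.70 for the 301. What part the detection limit has in these counts was not tested. The bound reached 2-fold for 75 of the former and 104 of the latter. Ptprc, the leukocyte antigen CD45, was at least 7.98-fold higher on EGFP, with levels of -3.56 and -8.53. It was well above background on 2 of the 12 arrays, and 5 of the 10 microglia and leukocyte markers were so on neither EGFP nor mock. Gldn, a gene of Schwann cell nodes, was at least 13.5-fold higher on EGFP and well above background on that array alone. On the mock side, Nlrp9c, an inflammasome family gene, was at least 10.6-fold higher on mock, and Gkn1, a stomach mucosal gene, at least 10.4-fold, each well above background on mock alone.

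Among the 11848 genes of the middle and brightest parts, Ifi44 led the genes higher on EGFP. Ifi44 is an interferon-stimulated gene (probe at chr3:151631285-151631344, mm7), with a level of -1.83 on EGFP and -2.75 on mock, a difference of 0.92 or 1.89-fold. Its second probe gave 1.04. Of the 6165 genes with at least 2 measured probes, it was 1 of 3 in which every one was at least 1.5-fold apart in 1 direction. The others were Cited4 (0.73 and 0.80), a transcriptional coactivator gene, and Prl2c3 (-0.66 and -0.61), a prolactin family gene. With the normexp background, Ifi44 stood at 0.63, while Cited4 at 0.15 and Prl2c3 at -0.47 were no longer 1.5-fold apart.

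On the other arrays of the slide, Ifi44 stood at 1.5 on Pax6 and -2.07 on Hmga2. It lay between -0.03 and 0.85 on Esx1, Crebzf, Pdx1, Sox11 and Zfp451, and between -3.01 and -2.29 on Gatad2b, Etv6 and Nfxl1. The EGFP level was thus above mock but well below the levels on 6 of the arrays. Fas, a death receptor gene and p53 target, showed a like order: -1.75 on EGFP, -2.28 on mock, 1.61 to 2.15 on Pax6, Esx1, Crebzf, Pdx1, Sox11 and Zfp451, and -2.41 to -1.90 on Hmga2, Gatad2b, Etv6 and Nfxl1. Its probe was printed 10 times, with spot SDs of 0.09 on EGFP and 0.08 on mock and a standard error of the difference of 0.04 (n = 10 spots each), which covers printing and scanning of 1 extract only. Its other probe, near background, differed by 0.04. Fgf7, a growth factor gene of mesenchymal cells, stood at -1.81 on EGFP and -2.31 on mock, and between -0.53 and -0.07 on the 6 arrays named for Fas.

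Khnyn, which encodes a cofactor of the antiviral protein ZAP, stood at -1.20 and -2.10, the highest of its levels on the 12 arrays being that on EGFP. Its second probe differed by 0.06. Rpl30, a ribosomal protein gene whose probe may also read related copies, stood at 4.25 on EGFP and 3.59 on mock. Over the other 10 arrays its level ran from 2.87 to 5.01, so that the difference of 0.67 was smaller than the range of the rest. Ssb, which encodes the La RNA-binding protein, stood at -2.09 and -2.64, inside a range of -4.07 to -0.78. Ttc8, a ciliary BBSome gene, stood at -0.35 and -0.87, inside a range of -1.60 to 0.13. The remaining genes of the 10 highest in these parts were Grk5, Zfp3 and Efcab2, with differences of 0.54, 0.52 and 0.48, and the second probe of Grk5 gave -0.13.

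Lower on EGFP in the middle and brightest parts were Grin2d, Prl2c3, Prl2c5, Krtap6-3, Cks2, Fam166c, Prss56, Prh1, Angptl4 and Pou3f1. Grin2d, an NMDA receptor subunit gene, stood at 0.81 on EGFP and 1.53 on mock, the highest level of the 12 arrays, with -1.18 to 0.54 on the other 10. Prl2c3 stood at -2.63 and -1.97, and Prl2c5 at -2.43 and -1.78. These genes are near-identical copies, so their probes may read each other's transcripts. On Pax6 they stood at -4.90 and -4.46, the lowest of the 12 arrays, and on Etv6 at -0.34 and -0.17, the highest. Cks2, a cyclin-dependent kinase subunit gene, stood at 4.59 and 5.20, but its second probe differed by 0.02. Pou3f1, a POU transcription factor of neural and glial precursors, stood at -1.73 and -1.25, and Angptl4, a lipase inhibitor gene, at -0.58 and -0.09. For Fam166c, Prss56 and Prh1 the second probe, near background, leaned the other way, by 0.99, 0.40 and 0.21.

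**Figure D3:**
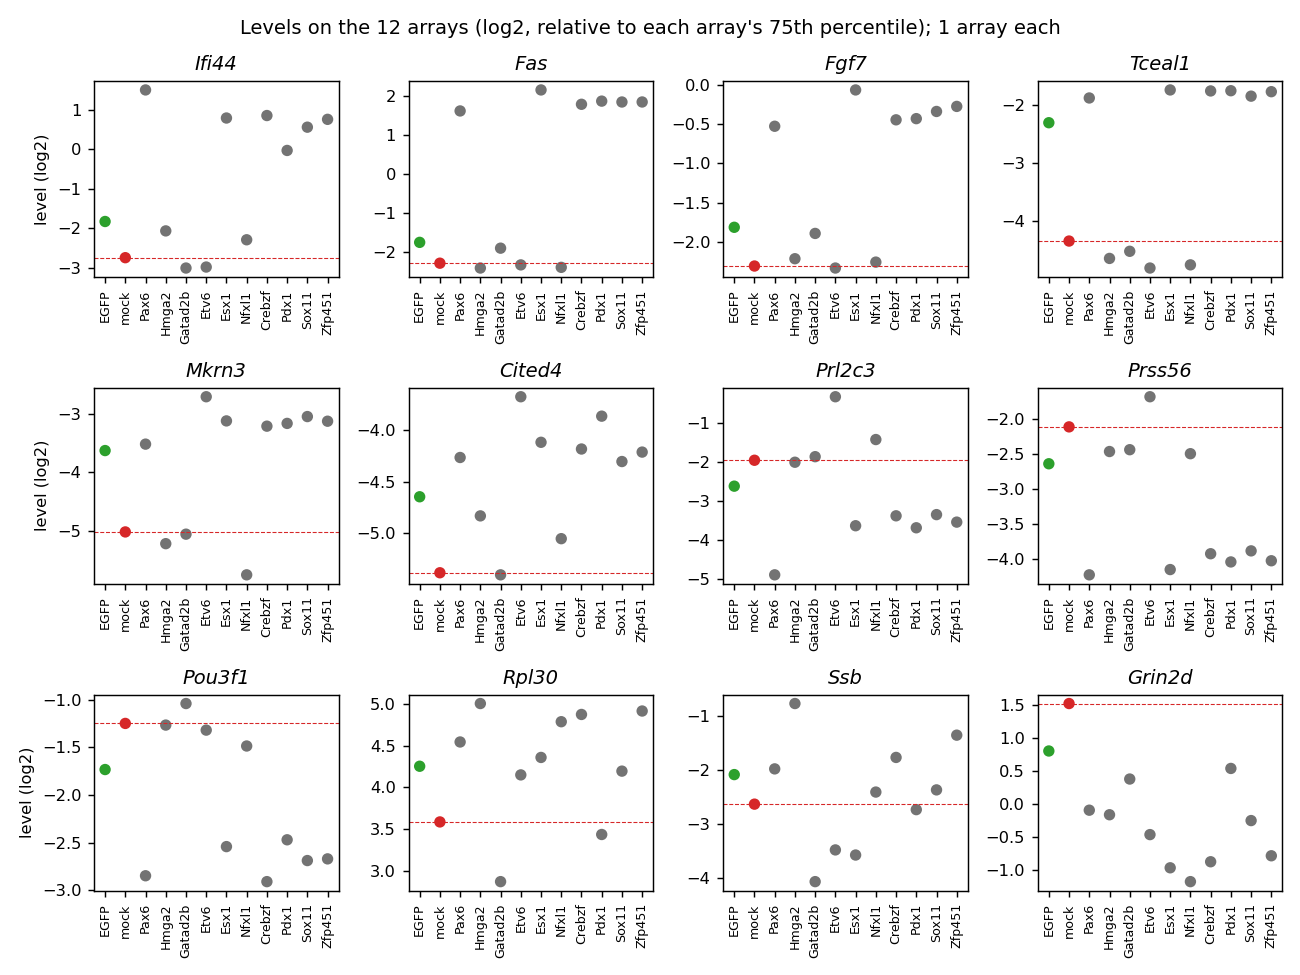
Levels (log2, relative to the 75th percentile of each array) of 12 named genes on the 12 arrays, 1 array per point, with EGFP in green, mock in red and the dashed line at the mock level. For Ifi44, Fas and Fgf7, EGFP stands slightly above mock and far below Pax6, while for Rpl30 and Ssb both fall inside the range of the other arrays.

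Repeated spots showed how small a difference the arrays resolved. Of 245 probes printed 10 times, 174 were well above background on both arrays. Their median spot SD was 0.057 on EGFP and 0.074 on mock, and the median standard error of a difference was 0.029. The median absolute difference was 0.064, and 57 of the 174 (32.8%) differed by more than 3 such errors, which do not cover differences between cultures. Among probes of the middle and brightest parts, Ptgs2, the inducible cyclooxygenase gene, stood at -1.72 on EGFP and -1.40 on mock, a difference of -0.31 with a standard error of 0.03. Bmp4, a bone morphogenetic protein gene, differed by 0.27 (standard error 0.03), with levels of -0.22 and -0.49. Both probes were chosen after their values were seen.

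The genes that infection and selection may change were read in 24 lists, with 499 measured genes, some of them in more than 1 list. Of these, 3 were at least 1.5-fold apart: Ifi44, Mx1 and Rpl30, all higher on EGFP, beside 2.44% of all genes at 1.5-fold in either direction. None was 2-fold apart, beside 0.557% of all genes. With the normexp background Mx1 stood at 0.09, which ends its place among the 3. The list medians ran from -0.12 to 0.13.

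Interferon-stimulated genes had the highest median, 0.13, beside 0.0008 for all genes. It was 0.06 with the normexp background. Of 35 on the array, 31 were measured, 26 with a higher level on EGFP and 5 with a lower one. In the middle and brightest parts, 47.6% of all genes were higher on EGFP and 52.4% lower. These shares leave out the dimmest part, whose median was 0.03 and which holds members such as Mx1, Irf7 and Ifit1, so they do not match the list. Mx1, an antiviral GTPase gene, stood at -5.14 and -5.93, and its second probe was not above background on either array. Psmb8, an immunoproteasome subunit gene, stood at -2.86 and -3.22, Irf7, a factor that amplifies interferon, at -5.12 and -5.47, and Mx2 at -2.75 and -3.07. Isg15, a ubiquitin-like modifier gene, stood at 0.11 on EGFP and -0.06 on mock, with 2.01 on Pax6 and -0.08 on Hmga2. Ifit1, which encodes an RNA-binding antiviral protein, stood at -4.11 and -4.30, with -0.30 on Pax6 and -4.06 on Hmga2. Irf9 (0.01), a transcription factor of the interferon response, and Bst2 (0.06), which encodes the virion tether tetherin, were nearly level, and Gbp3 was lowest at -0.13.

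The 250 bases upstream of the start of the interferon-stimulated genes were read from RefSeq, build GRCm38.p6, for the motif GAAANNGAAA on either strand, the core of an interferon-stimulated response element. It was present in at least 1 promoter of 12 of the 23 measured members with a promoter entry, and in 2.98% of all 32851 promoters. The first count is of genes, some with more than 1 promoter such as Gbp3, and the second of promoters, so they are not like for like. The promoters of Isg15 (chr4:156200819-156201068, minus strand, overlapping matches) and Ifit1 (chr19:34640639-34640888, plus strand) are shown because both carry it, in capitals, and that of Ifi44 (chr3:151749911-151750160, minus strand), the member with the largest difference, because it has no match in this window.
Isg15 promoter: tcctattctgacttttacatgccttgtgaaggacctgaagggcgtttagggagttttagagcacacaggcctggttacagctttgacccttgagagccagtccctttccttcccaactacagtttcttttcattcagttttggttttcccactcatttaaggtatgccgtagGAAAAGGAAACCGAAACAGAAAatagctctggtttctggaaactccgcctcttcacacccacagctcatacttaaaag
Ifit1 promoter: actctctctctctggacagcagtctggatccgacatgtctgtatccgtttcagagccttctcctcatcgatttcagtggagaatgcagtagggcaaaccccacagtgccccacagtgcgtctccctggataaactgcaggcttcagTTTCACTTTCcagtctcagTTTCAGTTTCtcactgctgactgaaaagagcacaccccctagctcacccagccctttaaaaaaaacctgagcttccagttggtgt
Ifi44 promoter: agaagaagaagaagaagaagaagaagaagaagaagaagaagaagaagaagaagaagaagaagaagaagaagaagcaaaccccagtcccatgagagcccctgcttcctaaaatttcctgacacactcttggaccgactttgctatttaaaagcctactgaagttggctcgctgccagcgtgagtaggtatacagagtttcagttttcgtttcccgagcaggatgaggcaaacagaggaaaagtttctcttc
The differences of Isg15, Ifit1 and Ifi44 were 0.18, 0.19 and 0.92. Other members with the motif were lower on EGFP, namely Gbp3 (-0.13), Oas3 (-0.05) and Trim30a (-0.03), as was Oasl1 (-0.06), which had no match. Whether motif and difference go together was not tested. A match is a description of these letters and not a site of binding. Having no match does not mean that no like element is present. The Ifi44 promoter holds the run tttcagttttcgtttc, in which tttc recurs at spacings that the motif does not allow.

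Genes of sensing and restriction were closer to the rest. The 21 measured nucleic acid sensing genes had a median of 0.005, with Tlr3, a receptor for double-stranded RNA, at 0.21 and Sting1, an adaptor of DNA sensing, at -0.13. All 21 listed retrovirus entry and restriction genes were measured, with a median of -0.01. Slc7a1, the receptor of ecotropic murine retroviruses, stood at -4.14 and -4.07. Trim28, a corepressor that silences proviruses, stood at 4.20 and 4.23. Zfp809, which recruits it to proviral DNA, had the lowest difference of the list at -0.21. NF-kappaB targets had a median of 0.05, with the chemokine genes Ccl7 and Ccl20 at 0.34 and 0.31.

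ATF4 targets, which respond to amino acid shortage and stress on translation, had 20 of 22 measured members lower on EGFP and a median of -0.12. Beside this and the counts that follow, 52.4% of all genes in the middle and brightest parts were lower. The dimmest part, which holds members such as Fosb, lies outside that share. Slc7a11, the cystine transporter gene, stood at -1.39 on EGFP and -0.94 on mock, and Chac1, a glutathione-degrading enzyme gene, at 1.84 and 2.13. On the same slide Slc7a11 stood at -3.44 on Pax6 and -1.10 on Hmga2. Immediate early genes, which answer growth signals within minutes, had 16 of 18 lower and a median of -0.12. Among them Fosb stood at -3.71 and -3.34 and Egr1 at 2.54 and 2.77, and Fos was higher on EGFP, by 0.10. Nrf2 and metal response genes had 13 of 17 lower, with Hmox1, heme oxygenase, at -0.23 and Mt2, a metallothionein, at -0.29. Of the 22 measured p53 targets 12 were lower, near the 52.4% of genes in the middle and brightest parts. Cdkn1a, the inhibitor p21, was among these 12 at -0.22 and Mdm2 at -0.06.

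The lists nearest to the action of G418 on ribosomes were close to the median of all genes. All 37 listed cytosolic ribosomal protein genes, a part of the class, were measured, with a median of 0.03 and, apart from Rpl30, a range of -0.12 to 0.13. Translation factor genes had a median of -0.003, with Eef2k, the kinase that inhibits elongation factor 2, highest at 0.46. Nonsense-mediated decay genes had a median of -0.03. Mitochondrial ribosome genes had -0.04, with 19 of 23 lower, beside 52.4% of all genes in the middle and brightest parts. Chaperone genes of the endoplasmic reticulum unfolded protein response had a median of -0.02, heat shock genes -0.02, and lysosome and autophagy genes 0.02. Apoptosis genes had a median of 0.004. Genes of DNA replication and mitosis, read because selection can alter growth, had medians of -0.02 and 0.02. The 6 lists not yet described (FGF and ERK feedback, Notch, TGF-beta and BMP targets, cyclin-dependent kinase inhibitors and RB family, hypoxia and glycolysis, cholesterol synthesis) had medians between -0.03 and 0.03. The 11 measured reference genes lay between -0.12 for Hprt and 0.13 for Actb.

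**Figure D4:**
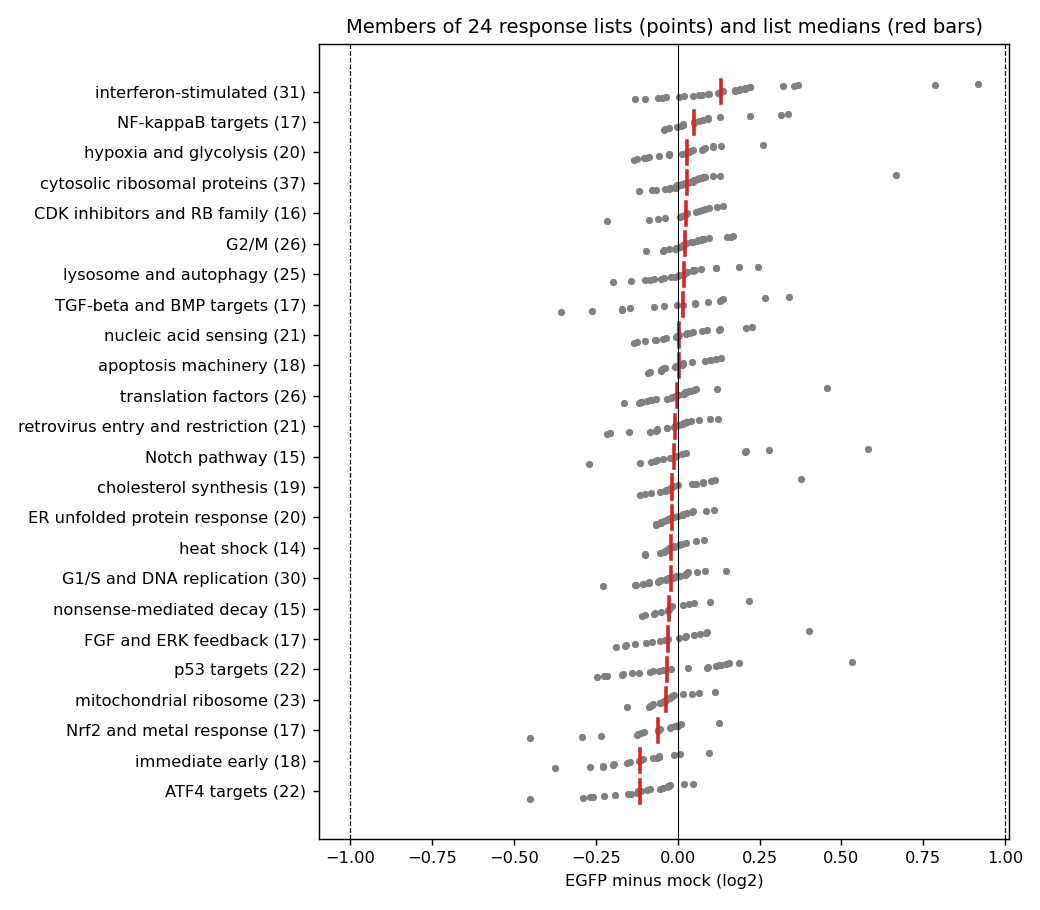
EGFP minus mock (log2) for the measured members (grey points, their number in brackets) of 24 response lists, with the list median as a red bar and dashed lines at 2-fold. No point reaches 2-fold, and medians run from -0.12 for ATF4 targets to 0.13 for interferon-stimulated genes.

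Small differences between EGFP and mock also ran with differences among arrays that used neither of them. The arrays of Pax6 and Hmga2 stood on the same slide. Over 11846 genes of the middle and brightest parts, EGFP minus mock and Pax6 minus Hmga2 had a Spearman rho of 0.36 and a Pearson r of 0.33, across genes, which are not independent replicates. Both differences share the slide and the array design. Over the 13 pairs of arrays that share a slide and hold neither EGFP nor mock, rho lay between -0.40 for Etv6 minus Esx1 and 0.36. Beyond this slide, rho was 0.34 for Esx1 minus Nfxl1 and 0.02 for Crebzf minus Zfp451.

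Bins of Pax6 minus Hmga2 showed the sizes. In the middle and brightest parts, 52.4% of all genes were lower on EGFP by any amount and 47.6% higher. Of 22 genes at least 8-fold lower on Pax6 than on Hmga2, 21 were lower on EGFP, with a median of -0.19. Of 109 genes 4-fold to 8-fold lower on Pax6, 97 were lower on EGFP, with a median of -0.12. Of 177 genes 4-fold to 8-fold higher on Pax6, 136 were higher on EGFP, with a median of 0.10, and of 64 at least 8-fold higher, 39 were, with a median of 0.06. Among genes less than 2-fold apart the median was -0.003. In the first set, Areg, an epidermal growth factor receptor ligand, differed by -0.42 and Sema7a, a semaphorin, by -0.33. In the set at least 8-fold higher, Fas differed by 0.53, Comp, a cartilage matrix protein gene, by 0.37 and Sparcl1, a matricellular protein of astrocytes, by 0.29. These 5 genes were chosen after their values were seen. The differences between EGFP and mock were a small part of those between Pax6 and Hmga2, which were 4.02 for Fas and -3.33 for Areg. What the arrays share beyond the slide was not tested.

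**Figure D5:**
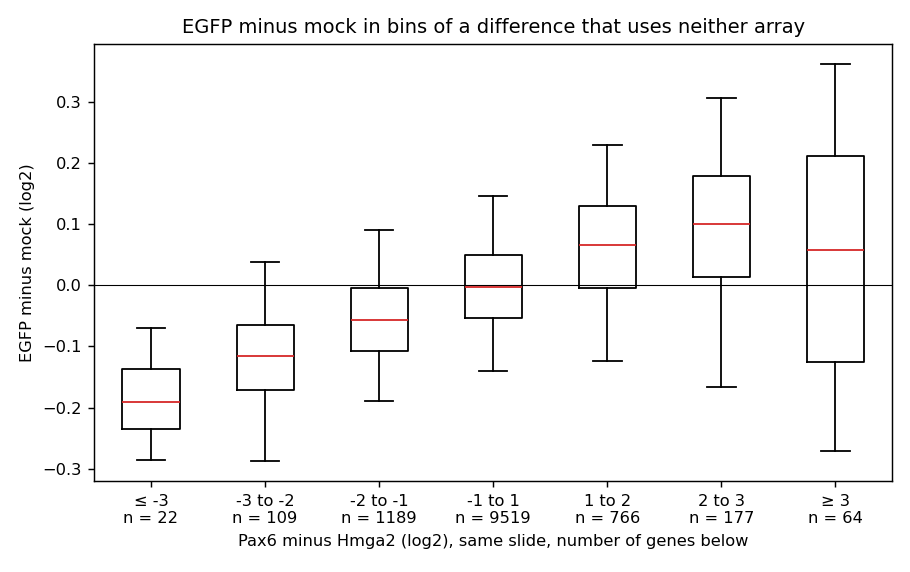
EGFP minus mock (log2) in 7 bins of Pax6 minus Hmga2 (log2) over genes of the middle and brightest parts, with boxes from the lower to the upper quartile, the median in red and whiskers from the 5th to the 95th percentile. Medians run from -0.19 in the lowest bin to 0.10 and 0.06 in the highest.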

How the data were processed

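RNA of 2 cultures was compared on 1-colour arrays of a 4-array slide, beside the other 10 arrays of the series. The deposited files hold Agilent Feature Extraction 10.7.3.1 output, a tool also named in the submitters' processing notes. Per the file headers, each spot carries a linear intensity from which background was subtracted. Other deposited columns are flags set by the image software. The deposited value table equals the intensity on all 45018 features of every array. Further scaling by the authors: not given in the sources used here. The files place probes on mm7.

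Outlier spots and control spots were left out (43379 spots, 41174 probes), repeated spots were averaged on log2, and each array's log2 75th percentile was subtracted. A gene was represented by the probe with the highest mean over the 12 arrays. Probes were named by RefSeq accession (22951), symbol (6659), synonym (3109) or the file's name (8455). Called means at least 2-fold apart. Named were the 10 largest differences per direction at 2-fold and in the middle and brightest parts, genes with every probe at 1.5-fold, response list members at 1.5-fold, and markers, leaving out olfactory and vomeronasal receptors, clones and predicted genes. Others are examples from the lists, the repeated probes and the array bins. Bounds set the bright array against the higher of the dim array's own signal and its lowest signal well above background.

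The members and lists were chosen with earlier results of these data known. Array pairs, bins, spike-ins and promoters were added after seeing the data. The counting was checked on simulated data. Alternatives were quantile, median and loess scaling, normexp (offset 50), the mean of probes, other filters on dim probes, 1.5-fold and 3-fold rules, and Hmga2 in place of either array. Tools were R 4.3.3, limma 3.58.1, Python 3.11.15, pandas 2.3.3, scipy 1.17.1 and matplotlib 3.10.9. Some members of the lists are counted but not reported here by name.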

Additional observations from a re-analysis of the deposited data

How the results depend on the processing

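No paired analysis was possible because each group held 1 array. The counts of genes at least 2-fold higher and lower on EGFP, 37 and 62, were 5 and 2 with the normexp background, which adds an offset to dim signals. They were 19 and 23 among the 16075 genes that all 12 arrays measured above background, and 112 and 166 among 19191 genes well above background on at least 1 of both arrays, with a floor. The lower count was 90 with quantile normalization. A 1.5-fold rule gave 243 and 191, and a 3-fold rule 14 and 17. With Hmga2 in place of EGFP the counts were 93 and 149, and with Hmga2 in place of mock 156 and 97, and these comparisons share an array with the main one. Of 266 list medians under other settings, 4 moved by more than 0.11, the robust SD of all differences: muscle, 0.09 in the report, stood at -0.054 with quantile normalization and -0.056 with normexp, pluripotent, otherwise 0.08, at -0.039 with normexp, and microglia and leukocyte at 0.29 with the floor. Smaller moves were that of the interferon median, from 0.06 with normexp to 0.18 over genes above background on all 12 arrays, and that of the endothelial median, from -0.20 with quantile normalization to -0.06 with the mean of probes. None of the 20 named genes at 2-fold changed sign in a setting that gave it a value. Of 280 values of named genes, 53 moved: Ifi44 ranged from 0.63 to 0.98, Fas from 0.28 to 0.53, Mx1 from 0.09 to 0.79, Cited4 from 0.15 to 0.77 and Tceal1 from 1.16 to 2.03, while Fam166c ranged from -0.61 to 0.20. Signal over background limits the dimmest part, where 98 of the 99 genes at 2-fold lay.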
